A study of Mus musculus with 23 samples.

Results

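The genes described here are 33 genes of sterol and fatty acid synthesis, chosen by name: every probe set of the array whose platform symbol was a listed gene was taken. The array named 32 of the 33 genes, through 74 probe sets, and 69 of these probe sets passed the filter on low signal. All 32 genes had at least 1 tested probe set among the 14980 genes tested, and the thiolase gene Acat2 was not analysed here. By role they comprised 6 measured genes of the mevalonate part of the pathway, 11 of its sterol part, 6 regulators or sterol carriers and 9 genes of fatty acid synthesis.

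RNA came from medulloblastomas of Ptch+/-HIC+/- mice that were dissociated and grown under the skin of the right flank of nu/nu mice, so all 8 groups shared the heterozygous loss of the Hedgehog receptor gene Ptch1 and of HIC as the labels write it, and a host without thymic T cells. NVP-LDE225 inhibits Smoothened, the transducer of the Hedgehog signal. The 23 arrays held 3 vehicle tumours with no stated time, 2 vehicle tumours at 4 h, 3 sensitive tumours at each of 4, 8, 24 and 48 h of NVP-LDE225 at 40 mg/kg, 3 resistant tumours at 40 mg/kg and 3 at 160 mg/kg, the last 2 groups with no stated time since dosing. The labels give neither age nor number of doses, and do not say that each replicate is an animal of its own. The p-values therefore rest only on array-to-array spread within groups, which may be technical. Of the 12 short-term treated arrays, 6 carry the word resistant in another label, and the groups follow the description.

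Cells make cholesterol from acetyl-CoA through mevalonate and squalene, and the last steps turn lanosterol into cholesterol. The transcription factors SREBP-2 and SREBP-1, from Srebf2 and Srebf1, drive the enzymes' genes when membrane sterol is low; Scap escorts them to the Golgi, and the Insig proteins hold them back when sterol is plentiful. SREBP-1 acts more on fatty acid genes. Smoothened itself binds sterols and can carry a covalent cholesterol, so the pathway matters to Hedgehog signalling, and granule neuron progenitors, the cells that give rise to this tumour, build much membrane as they divide.

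Values are MAS5 signals, a linear measure of a probe set's brightness that the authors had scaled on every array to a 2% trimmed mean of 150.0. Changes are differences between group means of log2(signal + 16), given with their standard error, and the added 16 makes the change of dim genes smaller than the fold of their signals. A gene was represented by its probe set of highest mean signal, and called when its limma p, adjusted by Benjamini-Hochberg over 35066 probe sets, was under 0.05. Signals of different genes are not compared, since each probe set has its own brightness. The Hedgehog target Gli1 followed the labels: its signal was 631 to 710 on the vehicle arrays, 4.2 to 18.6 at 48 h and 966 to 1269 in the resistant tumours at 40 mg/kg. The proliferation gene Mki67 was at 4735 to 4860 with vehicle, 3715 to 4319 at 8 h, 304 to 372 at 24 h and 413 to 664 at 48 h. On replicates 1, 2 and 3 of the resistant tumours Mki67 was at 2455, 2858 and 3900 at 40 mg/kg. At 160 mg/kg it was at 5002, 4344 and 3186. The part of proliferation in the changes of the set was not tested. Of the 6 listed granule lineage markers of the tumour, Zic1 was at 3796 or more and Atoh1 at 1271 or more on every array. The lowest Atoh1 signals, 1271, 1834 and 1478, were at 48 h, where the changes of the 6 ran from -1.42 to 4.33.

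To show what lies in front of these genes, the 250 bases upstream of the RefSeq start site were read from RefSeq's table of assembly GRCm38.p6, which held 26 of the 33 genes, and 3 motifs were sought on both strands. The core of the sterol regulatory element, TCACNCCAC, occurred in 1 of the 26, Hmgcs1, against 1.05% of all promoters in the table (1.22% of genes). The CCAAT box, bound by NF-Y, occurred in 20 of the 26 (76.9%) against 33.9% of promoters (37.5% of genes), and GGGCGG, the Sp1 box, in 21 (80.8%) against 32.7% of promoters (35.4% of genes). Overlaps between motifs were not removed, a match is not a shown binding site, and the absence of these letters from the window says nothing of SREBP binding. Below are 4 genes that fell with the drug at 24 and 48 h, and Tm7sf2, which rose. Capitals mark TCACNCCAC and the CCAAT box, which reads ATTGG where it lies on the opposite strand, and each sequence runs 5′ to 3′ towards the start site.
Hmgcs1 (chr13:119690101-119690350, plus strand): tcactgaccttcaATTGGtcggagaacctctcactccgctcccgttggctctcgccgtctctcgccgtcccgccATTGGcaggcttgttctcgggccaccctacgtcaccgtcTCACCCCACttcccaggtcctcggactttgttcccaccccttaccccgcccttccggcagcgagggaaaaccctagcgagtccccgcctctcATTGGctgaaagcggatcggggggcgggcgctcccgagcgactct
Idi1 (chr13:8885356-8885605, plus strand): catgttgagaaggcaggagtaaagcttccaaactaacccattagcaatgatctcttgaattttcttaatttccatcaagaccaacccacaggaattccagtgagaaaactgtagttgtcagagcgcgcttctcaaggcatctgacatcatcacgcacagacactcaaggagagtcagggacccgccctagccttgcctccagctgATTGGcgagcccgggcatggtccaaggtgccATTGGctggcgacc
Cyp51 (chr5:4104698-4104947, minus strand): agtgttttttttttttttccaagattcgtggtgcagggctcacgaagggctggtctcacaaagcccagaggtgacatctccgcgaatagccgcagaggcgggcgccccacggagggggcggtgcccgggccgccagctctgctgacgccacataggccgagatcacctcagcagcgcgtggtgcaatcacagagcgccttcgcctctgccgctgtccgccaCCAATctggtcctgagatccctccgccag
Insig1 (chr5:28071162-28071411, plus strand): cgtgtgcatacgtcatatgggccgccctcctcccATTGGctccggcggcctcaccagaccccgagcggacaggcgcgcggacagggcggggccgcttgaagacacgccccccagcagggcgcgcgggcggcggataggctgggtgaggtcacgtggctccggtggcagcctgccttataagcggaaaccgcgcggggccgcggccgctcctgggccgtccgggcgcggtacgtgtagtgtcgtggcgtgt
Tm7sf2 (chr19:6067851-6068100, minus strand): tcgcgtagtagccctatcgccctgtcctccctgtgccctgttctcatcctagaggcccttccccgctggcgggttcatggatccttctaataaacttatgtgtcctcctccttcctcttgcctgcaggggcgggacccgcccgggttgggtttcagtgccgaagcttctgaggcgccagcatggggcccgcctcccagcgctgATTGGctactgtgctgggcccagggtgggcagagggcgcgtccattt
All 5 windows hold a CCAAT box: 3 copies lie before Hmgcs1, 2 before Idi1 and 1 before each of the others, the riser Tm7sf2 included.

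At 4 h no gene of the set passed the test against the 4 h vehicle, where 0.26% of all genes were called lower and 0.0868% higher. Scap and Sc5d were the 2 genes with an unadjusted p under 0.05. The median change of the 32 genes was -0.03, against 0.01 for all genes. At 8 h 2 genes were lower than in the 4 h vehicle, against 2.48% of all genes, and none was higher, against 2.12%; the median of the set was -0.25, that of all genes 0.04. Idi1 makes the allylic isomer of the isoprenoid unit. Its signal was 1158 and 1661 in the 4 h vehicle, 1036, 1538 and 1130 at 4 h, and 732, 633 and 714 at 8 h. The 8 h arrays all lay below the 4 h vehicle and 4 h drug arrays, a change of -0.99 ± 0.27 (adjusted p = 0.04). Hsd17b7, a ketoreductase of the demethylation of lanosterol, fell by 0.86 ± 0.21 (adjusted p = 0.021). Its 8 h signals of 141, 168 and 145 lay within the range of the 3 vehicle arrays of no stated time (127, 178 and 166), and set against all 5 vehicle arrays it was at -0.37 (adjusted p = 0.39). As a mean over its probe sets it was -0.51 (adjusted p = 0.13). For Hmgcs1 the 8 h signals of 2366, 2060.1 and 2185 lay below 2912 and 3673 in the 4 h vehicle, but the change of -0.57 ± 0.20 did not pass (adjusted p = 0.16). Between 4 and 8 h of drug 0 of 32 genes passed, against 0.601% of all genes lower and 0.127% higher, though 30 of the 32 changes were below 0, the median was -0.20 (all genes 0.03) and 6 had an unadjusted p under 0.05. Neither call held throughout: Idi1's was lost without any 1 of the 5 arrays compared (adjusted p = 0.06 to 0.42), and that of Hsd17b7 without replicate 1 or 3 of 8 h or replicate 2 of the 4 h vehicle (0.073 to 0.28).

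At 24 h 18 of the 32 genes were lower than with vehicle and 2 were higher, in a comparison that called 14.4% of all genes lower and 19.7% higher. At 48 h 20 were lower and 1 higher, against 21.3% and 25.1%. The median change of the set was -0.52 at 24 h and -0.63 at 48 h, while that of all genes was 0.10 and 0.06. Both times share the same 3 vehicle arrays, and 16 genes were called in the same direction at both. No vehicle of 24 or 48 h is labelled. With the 4 h vehicle as control, an alternative chosen after the data were seen, 21 genes were lower and 0 higher at 24 h, and 21 lower and 1 higher at 48 h.

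**Figure D1:**
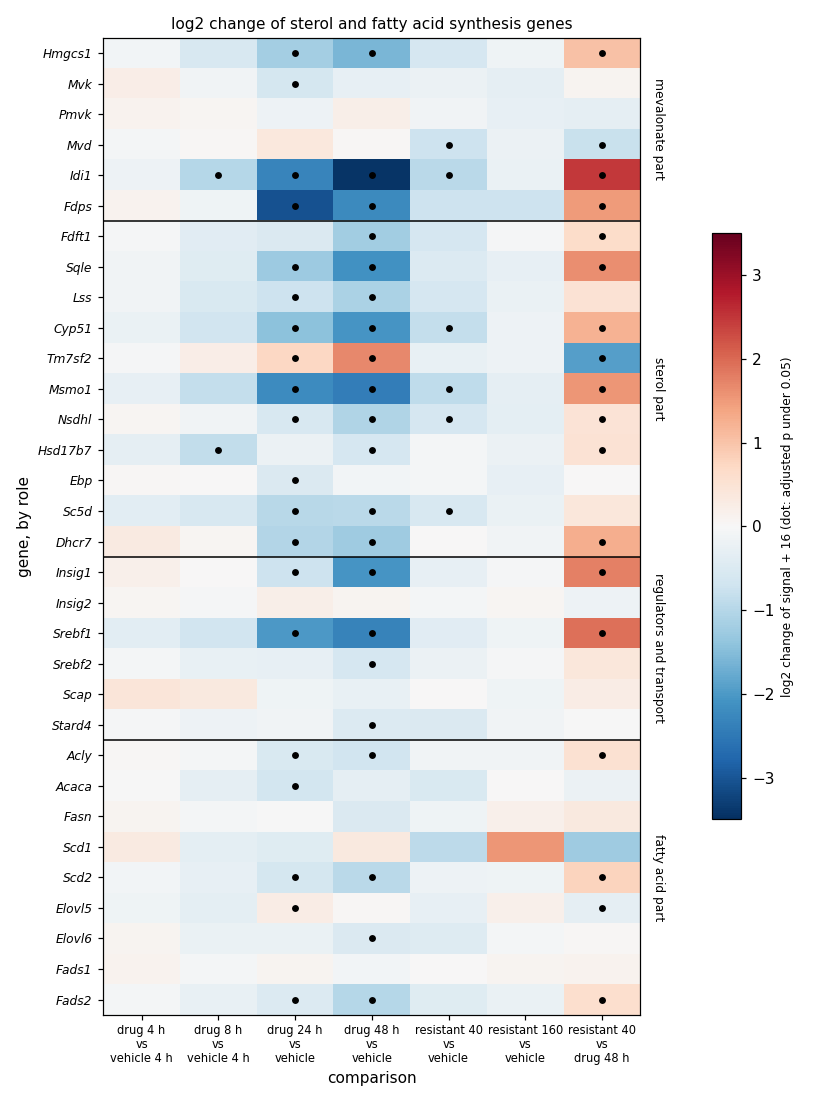
Each row is 1 of the 32 genes, grouped by role, and each column a comparison; colour gives the log2 change of signal + 16 (blue lower, red higher, scale -3.5 to 3.5) and a dot marks an adjusted p under 0.05. The blue block at 24 and 48 h holds 18 and 20 dots, and Tm7sf2 runs the other way. In the last column, resistant at 40 mg/kg against 48 h, 15 of the 48 h falls are red with a dot.

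In the mevalonate part 4 of 6 genes fell at 24 h and 3 at 48 h, with median changes of -0.89 and -0.95. Idi1 signal was 829.6, 1326 and 1195 on the vehicle arrays, 203, 161 and 275 at 24 h, and 73.7, 99.3 and 91.6 at 48 h. Every treated array was below every vehicle array and the 48 h arrays below the 24 h arrays. Its change of -3.42 ± 0.24 at 48 h (adjusted p = 6e-11) was the largest of the set, after -2.31 ± 0.24 at 24 h (adjusted p = 6.7e-08). Fdps makes farnesyl diphosphate, the branch point to squalene, prenylated proteins and ubiquinone. Its signal was 1027, 1122 and 940.0 with vehicle, 96.3, 98.6 and 137 at 24 h, and 217, 194 and 211 at 48 h. It was lowest at 24 h, with changes of -3.06 ± 0.23 (adjusted p = 2.6e-10) and -2.23 ± 0.23 (adjusted p = 2.6e-08). Hmgcs1, the cytosolic HMG-CoA synthase, gave 2391, 2775 and 2797 with vehicle, 1063, 1115 and 1321 at 24 h, and 885, 965 and 742 at 48 h, again without overlap. It fell by 1.18 ± 0.18 (adjusted p = 2.4e-05) and by 1.61 ± 0.18 (adjusted p = 1.5e-07). Mevalonate kinase, Mvk, fell at 24 h (-0.61 ± 0.21, adjusted p = 0.034) and was at -0.29 at 48 h (adjusted p = 0.31). The call of Mvk was lost without replicate 2 or 3 of 24 h or vehicle replicate 1 or 2 (adjusted p = 0.067 to 0.15). It was also lost with all 5 vehicle arrays (-0.47, adjusted p = 0.068), with the 4 h vehicle (-0.27, adjusted p = 0.48) and as a mean over probe sets (-0.28, adjusted p = 0.3). The kinase Pmvk and the decarboxylase Mvd, which act between Mvk and Idi1, did not pass at either time. Pmvk was at -0.17 and 0.20, and Mvd at 0.38 (95% interval 0.07 to 0.69, adjusted p = 0.056) and 0.05 (-0.26 to 0.35). The 24 h signals of Mvd nevertheless lay above every vehicle array, at 330 to 407 against 238 to 327. Its other tested probe set did the same, at 298, 317 and 272 against 199, 202.5 and 231. At 48 h both probe sets overlapped vehicle.

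In the sterol part 8 of 11 genes fell and 1 rose at 24 h, and 9 fell and 1 rose at 48 h, with median changes of -0.71 and -1.10. Msmo1, the oxidase that removes the C4 methyl groups, gave 615, 713 and 748 with vehicle, 90.3, 165 and 176 at 24 h, and 125, 129.8 and 94.0 at 48 h. The treated arrays of both times lay in the same low range, with changes of -2.19 ± 0.26 (adjusted p = 5.7e-07) and -2.43 ± 0.26 (adjusted p = 5.9e-08). Squalene epoxidase, Sqle, a rate-limiting step, gave 882, 981 and 1015 with vehicle, 351, 403 and 412 at 24 h, and 203, 276 and 160.0 at 48 h. Here the 48 h arrays lay below those of 24 h, with falls of 1.27 ± 0.21 (adjusted p = 5.2e-05) and 2.12 ± 0.21 (adjusted p = 1.7e-08). Cyp51, the lanosterol 14-demethylase, gave 516, 579 and 523 with vehicle, 165, 187 and 221 at 24 h, and 122, 123 and 106 at 48 h. Its 48 h arrays too lay below those of 24 h, with changes of -1.43 ± 0.18 (adjusted p = 2e-06) and -2.06 ± 0.18 (adjusted p = 3.5e-09).

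The other genes of the sterol part moved less. Dhcr7, which acts at the end of the pathway, changed by -1.04 and -1.26, and the C5-desaturase Sc5d by -0.96 and -0.95, all called. Lanosterol synthase, Lss, fell by 0.71 and 1.10, and the dehydrogenase Nsdhl by 0.56 and 1.06. Squalene synthase, Fdft1, narrowly missed the threshold at 24 h (-0.49 ± 0.19, adjusted p = 0.05) and fell by 1.21 ± 0.19 at 48 h (adjusted p = 1.3e-05). The isomerase Ebp fell at 24 h (-0.49 ± 0.12, adjusted p = 0.0021) and was at -0.09 at 48 h (adjusted p = 0.59), while Hsd17b7 was at -0.20 at 24 h (adjusted p = 0.47) and fell by 0.58 ± 0.19 at 48 h (adjusted p = 0.016). Tm7sf2 encodes a C14 sterol reductase, the enzyme after Cyp51, and went the opposite way. Its signal was 102, 86.7 and 71.1 with vehicle, 132, 154 and 175 at 24 h, and 329, 303 and 304 at 48 h. The 3 groups did not overlap, and the rises were 0.73 ± 0.25 (adjusted p = 0.03) and 1.69 ± 0.25 (adjusted p = 6.7e-06). The call of Tm7sf2 at 24 h was lost with the 4 h vehicle as control (0.61, adjusted p = 0.13) and, at adjusted p = 0.065 to 0.12, without replicate 2 or 3 of 24 h or of vehicle. The 48 h call of Hsd17b7 was lost without vehicle replicate 2 or 3 (adjusted p = 0.056 to 0.076), and as a mean over its probe sets the change was -0.22 (adjusted p = 0.3).

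**Figure D2:**
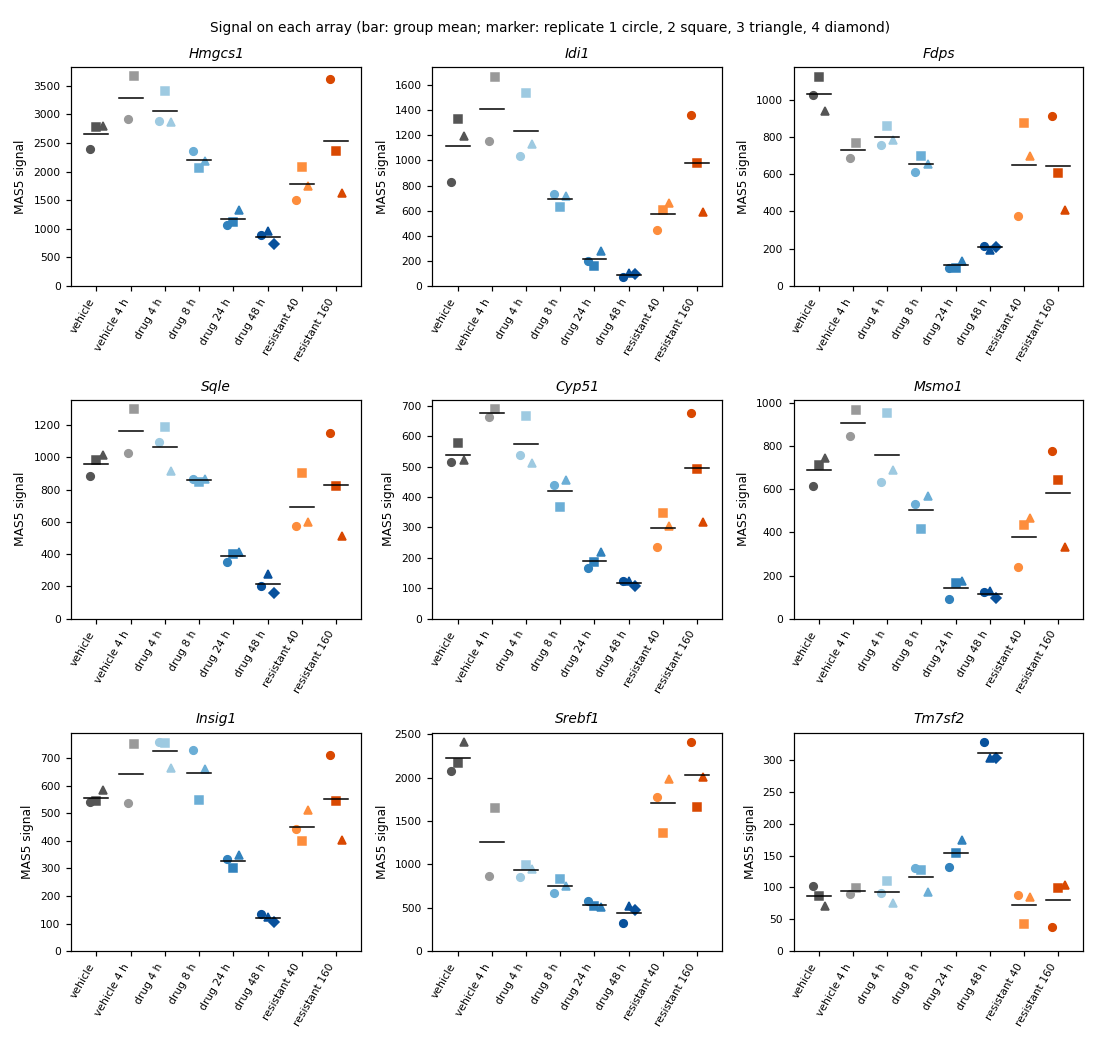
MAS5 signal (vertical axes, linear, from 0) of 9 genes on each of the 23 arrays by group, with the marker giving the replicate and the bar the group mean. Idi1, Sqle, Cyp51 and Insig1 step down from 8 to 24 to 48 h, Fdps is lowest at 24 h, Srebf1 is already lower in the 4 h vehicle, and Tm7sf2 is highest at 48 h.

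Among regulators and carriers 2 of 6 fell at 24 h and 4 at 48 h, with median changes of -0.22 and -0.53. Insig1, itself an SREBP target whose product retains Scap, gave 543, 543 and 586 with vehicle, 334, 303 and 348 at 24 h, and 134, 125 and 105 at 48 h. It stepped down without overlap, by 0.74 ± 0.16 (adjusted p = 0.001) and 2.07 ± 0.16 (adjusted p = 3.4e-10). Its paralogue Insig2, which is not driven by sterol depletion, was at 0.21 (95% interval -0.04 to 0.46) and 0.11 (-0.14 to 0.35). Srebf1 gave 2078, 2175 and 2417 with vehicle, 580.4, 522 and 504 at 24 h, and 326, 519 and 469.8 at 48 h, falls of 2.02 ± 0.19 (adjusted p = 1.2e-08) and 2.32 ± 0.19 (adjusted p = 6.6e-10). The 4 h vehicle arrays gave only 863 and 1650, so the size of this fall depended on the control: against the 4 h vehicle it was 1.14 ± 0.21 (adjusted p = 0.00028) and 1.44 ± 0.21 (adjusted p = 7e-06). The 4 h drug arrays (856, 991 and 946) overlapped the 4 h vehicle, and the 8 h arrays (665, 826 and 747) lay below it, with changes of -0.36 (adjusted p = 0.85) and -0.67 (adjusted p = 0.087). Srebf2 encodes the main regulator of the sterol enzymes. Its brightest probe set gave 175, 187 and 211 with vehicle, 109, 146 and 219 at 24 h, and 135, 126 and 104 at 48 h. The 24 h arrays straddled the vehicle range (-0.29, adjusted p = 0.3), and the 48 h arrays lay below it (-0.59 ± 0.20, adjusted p = 0.021). Its other tested probe set gave a larger fall: 219, 221 and 197 with vehicle, 90.9, 84.9 and 133 at 24 h, and 88.6, 61.7 and 75.2 at 48 h. Here no treated array overlapped vehicle, with changes of -0.96 ± 0.22 (adjusted p = 0.0019) and -1.33 ± 0.22 (adjusted p = 3.3e-05), so the size of the change of Srebf2 depended on the probe set. The sterol carrier Stard4 fell at 48 h by 0.47 ± 0.16 (adjusted p = 0.022), and Scap was at -0.15 and -0.26, neither called. The 48 h call of the brightest probe set of Srebf2 was lost without 48 h replicate 4 or vehicle replicate 3 (adjusted p = 0.083 to 0.096), and that of Stard4 also without 48 h replicate 1 (0.064 to 0.095).

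In fatty acid synthesis 4 of 9 genes fell and 1 rose at 24 h, and 4 fell at 48 h, with median changes of -0.44 and -0.49. Scd2, the stearoyl-CoA desaturase most typical of brain, gave 3926, 4459 and 4204 with vehicle, 2593, 2918 and 2635 at 24 h, and 2167, 2149 and 2156 at 48 h. These values were tight and did not overlap, with changes of -0.63 ± 0.12 (adjusted p = 0.00019) and -0.95 ± 0.12 (adjusted p = 3.6e-07). Fads2, the delta-6 desaturase of polyunsaturated fatty acids, gave 226, 261 and 216 with vehicle, 169.6, 166 and 155 at 24 h, and 94.7, 152 and 86.7 at 48 h. All treated arrays lay below vehicle, and the changes were -0.48 ± 0.17 (adjusted p = 0.039) and -1.01 ± 0.17 (adjusted p = 4e-05). ATP citrate lyase, Acly, which supplies cytosolic acetyl-CoA to both pathways, gave 2308, 2108 and 2162 with vehicle, 1604, 1428 and 1480.4 at 24 h, and 1164, 1628 and 1344 at 48 h. It was lower on every treated array, by 0.54 ± 0.11 (adjusted p = 0.00078) and 0.68 ± 0.11 (adjusted p = 3.5e-05). As a mean over its probe sets its 48 h change was -0.28 (adjusted p = 0.081). The elongase Elovl6 fell at 48 h (-0.49 ± 0.16, adjusted p = 0.015), and acetyl-CoA carboxylase, Acaca, at 24 h (-0.64 ± 0.18, adjusted p = 0.011; -0.32 and 0.076 as a mean over probe sets), without passing at the other time (-0.24 and -0.33). The delta-5 desaturase Fads1 was at 0.09 (95% interval -0.11 to 0.28) and -0.11 (-0.31 to 0.09). Elovl5, which elongates polyunsaturated fatty acids, gave 719, 772 and 851 with vehicle and 959, 817 and 1050.0 at 24 h, and its small rise (0.26 ± 0.10, adjusted p = 0.049) was -0.0895 with the 4 h vehicle as control. The smaller calls leaned on single arrays: at 24 h that of Fads2 was lost without any 1 of the 6 arrays (adjusted p = 0.05 to 0.14), of Acaca without 24 h replicate 2 or vehicle replicate 3 (0.06 to 0.093) and of Elovl5 without 24 h replicate 1 or 3 or vehicle replicate 1 or 2 (0.11 to 0.24). At 48 h the call of Elovl6 was lost without replicate 1 or 4 (adjusted p = 0.075 to 0.09).

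Scd1 and fatty acid synthase, Fasn, did not pass in any comparison with vehicle, and their arrays were spread widely. Scd1 gave 306, 419 and 409.8 with vehicle, 764, 114 and 221 at 24 h, 198, 2100.3 and 252 at 48 h, and 819, 357 and 4712 in the resistant tumours at 160 mg/kg. The high array of each treated group was replicate 1 at 24 h, replicate 3 at 48 h and replicate 3 at 160 mg/kg. The other tested probe set of Scd1 was highest on the same arrays of these groups, at 57.7, 199 and 137. With vehicle it gave 52.1, 55.1 and 90.4, so its 24 h array lay within the vehicle range, and the size of these rises depended on the probe set. Adipoq, which encodes the fat cell hormone adiponectin, gave 199, 55.4 and 76.5 at 24 h, 72.0, 568 and 132 at 48 h and 51.4, 19.3 and 518 at 160 mg/kg, so the same 3 arrays were its highest in these groups, against 16.9, 12.5 and 23.1 with vehicle. Without Car3, the summed signal of the 7 other measured adipocyte genes was 164 to 284 with vehicle and 491 to 2200 at 24 h. It was 2862 to 5938 at 48 h, 303 to 526 in the resistant tumours at 40 mg/kg and 664 to 5936 at 160 mg/kg. Most of the sum at 48 h was 1 gene, Fabp4, at 2670.5, 4816 and 3430. Fabp4 was also at 4998 on replicate 3 at 160 mg/kg, so the sum does not show a joint rise of the 7 genes. Car3 itself went the other way at 48 h, at 4358, 7624 and 4763 against 10845.5, 11525 and 9910 with vehicle. With Car3 included the sum showed no such rise, at 10136 to 11809 with vehicle and 7219 to 13561 at 48 h. Fasn gave 1099, 1166 and 1298 with vehicle, 1213, 1185 and 1147 at 24 h, and 497, 1787 and 651 at 48 h, with the Adipoq-high array highest at both times. At 160 mg/kg Fasn gave 1539, 1192 and 1294, so there it was highest on replicate 1 and not on the Adipoq-high replicate 3. Its change at 48 h was -0.50 (95% interval -1.04 to 0.05), and that of Scd1 0.34 (-1.17 to 1.85). Without the 3 arrays of highest Adipoq, an alternative chosen after the data were seen, 22 genes of the set were lower at 48 h and 1 higher. The part of fat cells in the signals of Scd1 and Fasn was not tested.

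**Figure D3:**
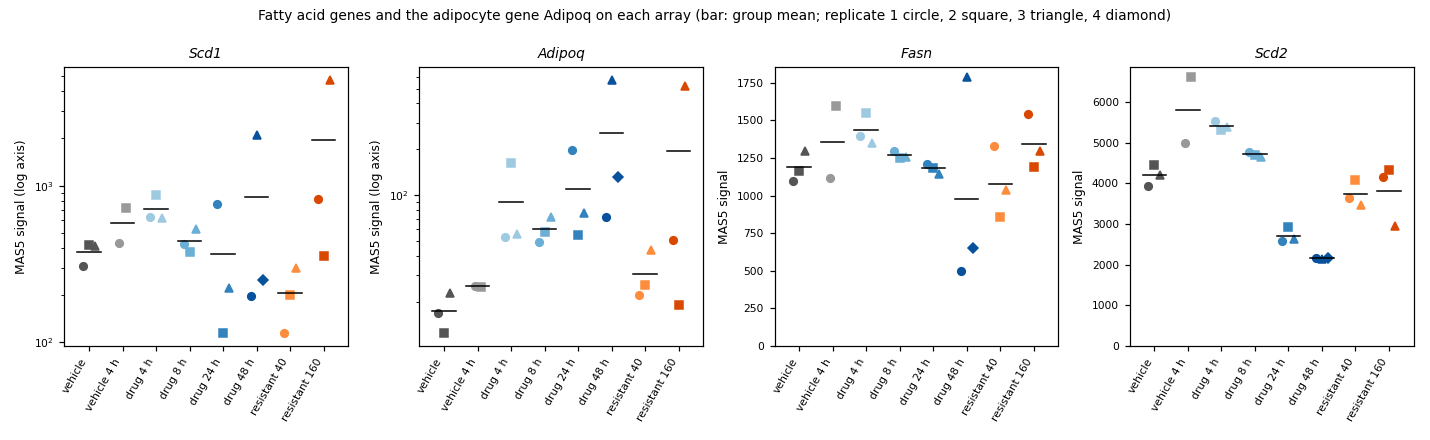
MAS5 signal on each array of Scd1 and of the adipocyte gene Adipoq (log axes), and of Fasn and Scd2 (linear axes from 0), by group, with the marker giving the replicate and the bar the group mean. The arrays at 2100.3 and 4712 for Scd1 are those at 568 and 518 for Adipoq, while Scd2 at 48 h lies within 2149 to 2167.

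Between 8 and 24 h of drug 14 of 32 genes were lower and 0 higher, against 8.6% and 8.26% of all genes, with a median of -0.50 (all genes 0.07). The falls were led by Fdps (-2.42 ± 0.23, adjusted p = 3.5e-08), Msmo1 (-1.74 ± 0.26) and Idi1 (-1.66 ± 0.24). From 24 to 48 h 8 genes fell further and 3 rose, against 13.1% and 11.9% of all genes, and the median was -0.28 (all genes -0.03). Insig1 (-1.33 ± 0.16, adjusted p = 2.6e-06), Idi1 (-1.11 ± 0.24) and Sqle (-0.85 ± 0.21) fell further, while Fdps (0.83 ± 0.23, adjusted p = 0.01), Ebp (0.40 ± 0.12) and Tm7sf2 (0.96 ± 0.25) rose. Members of a single pathway thus had different courses. No vehicle of these times was analysed here, and the vehicle groups themselves differed in level: the group means at 4 h and with no stated time were 1169 and 756 for Stard4, 288 and 157 for Hsd17b7, and 5809 and 4196 for Scd2. Without replicate 4 of the 48 h group 7 genes were called in place of 11. The calls of Fads2, Scd2, Cyp51 and Ebp from 24 to 48 h, and of Fads2, Sc5d and Stard4 from 8 to 24 h, were each lost without 1 of at least 2 arrays. The identifiers in the sample titles form runs, and the labels do not say what a run stands for. Run B held all 4 and 8 h drug arrays, replicate 1 of 24 h and replicate 2 of the 4 h vehicle. Run C held replicate 1 of the 4 h vehicle, and run A the rest. The step from 8 to 24 h and the difference between the vehicle groups thus cross runs. Only replicate 1 of 24 h shares a run with the 8 h arrays, so a run block rests on that array.

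These tumours changed in makeup and RNA over the same times, and in bulk samples fewer cells of a type and less RNA per cell cannot be told apart. The summed signal of 8 macrophage markers was 1331 to 2277 with vehicle, 2982 to 4916 at 24 h and 22996 to 30691 at 48 h, with 8 of 8 called higher at 48 h. For 6 fibroblast markers it was 2415 to 6116, 14374 to 19025 and 25175 to 35904, with 6 of 6 called higher at both times. The 8 muscle markers summed to 7463 to 10979 at 24 h, and to 117, 8719 and 148 on the vehicle arrays. The 6 granule lineage markers summed to 8769 to 10155 with vehicle, 15621 to 18586 at 24 h and 15639 to 18083 at 48 h, but they did not move together. At 24 h 3 were called higher and 0 lower, at 48 h 3 higher and 2 lower with changes from -1.42 to 4.33, and from 24 to 48 h 1 higher and 2 lower with 5 of 6 changes below 0. The 3′ to 5′ ratio of the actin probe sets, which is higher in degraded RNA, on the log2 scale was 1.00 to 1.08 with vehicle, 1.41 to 1.83 at 24 h and 0.84 to 0.96 at 48 h. That of the Gapdh probe sets was -0.24 to -0.11 with vehicle, 0.42 to 0.80 at 24 h, and 0.02, -0.14 and -0.18 at 48 h, so by both genes the 24 h arrays lay above vehicle. The part of these shifts in the falls was not tested.

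In the resistant tumours at 40 mg/kg 6 of the 32 genes were lower than with vehicle and 0 higher, against 4.45% and 5.39% of all genes, and 29 of the 32 changes were below 0, with a median of -0.40 (all genes 0.02). All 6 lie in the mevalonate and sterol parts. Idi1 signals of 443, 605 and 660.1 lay between the 48 h and the vehicle range, a change of -0.94 ± 0.24 (adjusted p = 0.015). Msmo1 (242, 434 and 467; -0.88 ± 0.26, adjusted p = 0.039) and Cyp51 (237, 348 and 305; -0.84 ± 0.18, adjusted p = 0.0054) were likewise below every vehicle array. Nsdhl fell by 0.58 ± 0.12 (adjusted p = 0.0026) and Sc5d by 0.56 ± 0.16 (adjusted p = 0.032). Mvd, which had not fallen with the drug, was lower here, at 204, 163 and 123 against 327, 238 and 273 with vehicle (-0.74 ± 0.15, adjusted p = 0.0029). Hmgcs1 (1507, 2071 and 1753; -0.58 ± 0.18, adjusted p = 0.055) and Fdps (376, 874 and 698; -0.73 ± 0.23, adjusted p = 0.051) just missed the threshold, and Sqle (576, 901 and 596) was at -0.49 ± 0.21 (adjusted p = 0.18). The Srebf1 signals of 1784, 1366 and 1991 lay under the vehicle range of 2078 to 2417 (-0.39, adjusted p = 0.26). Those of Insig1 (444, 399.8 and 514) lay under its vehicle range as well (-0.30, adjusted p = 0.32). This count moved with the control: with all 5 vehicle arrays 15 genes were lower, with the 4 h vehicle 16 were lower and 1 higher, and without vehicle replicate 2 or replicate 3 it was 3. The calls of Idi1, Msmo1 and Sc5d were lost without resistant replicate 1 or without vehicle replicate 2 or 3 (adjusted p = 0.054 to 0.22 over these genes and single arrays). As means over probe sets the calls of Idi1 (-0.75, adjusted p = 0.054), Cyp51 (-0.50, adjusted p = 0.063), Msmo1 (-0.53, adjusted p = 0.12) and Sc5d (-0.33, adjusted p = 0.13) were lost too. Macrophage markers summed to 7348 to 10382 in these tumours, above vehicle, and their part in the result was not tested.

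Set against sensitive tumours at 48 h of the same dose, the resistant tumours at 40 mg/kg had 15 genes higher and 3 lower, against 17.8% and 19.2% of all genes, with a median of 0.44 (all genes -0.04). In the same contrast 8 of 8 macrophage, 6 of 6 fibroblast and 4 of 7 adipocyte markers were called lower, and their part in the result was not tested. The comparisons of 48 h with vehicle and with the resistant tumours share the 48 h arrays, so a gene that is low there tends to appear in both. Of the 20 genes lower at 48 h, 15 were higher in the resistant tumours than at 48 h, and Elovl6, Lss, Sc5d, Srebf2 and Stard4 did not pass, though the other probe set of Srebf2 was higher by 0.79 ± 0.22 (adjusted p = 0.0083). The largest differences were Idi1 (2.48 ± 0.24, adjusted p = 2.7e-08), Srebf1 (1.94 ± 0.19, adjusted p = 2.9e-08) and Insig1 (1.77 ± 0.16, adjusted p = 1e-08). Sqle (1.63 ± 0.21), Msmo1 (1.54 ± 0.26), Fdps (1.50 ± 0.23), Dhcr7 (1.28 ± 0.21), Cyp51 (1.22 ± 0.18) and Hmgcs1 (1.02 ± 0.18) followed. In fatty acid synthesis Scd2 (3645, 4072 and 3466 against 2149 to 2167 at 48 h) was higher by 0.78 ± 0.12, Fads2 (177, 160.4 and 176) by 0.59 ± 0.17 and Acly (1718, 2203 and 2111) by 0.54 ± 0.11, which as a mean over probe sets was 0.25 (adjusted p = 0.13). The 3 genes that were lower were Tm7sf2 (88.4, 43.3 and 85.4; -1.94 ± 0.25, adjusted p = 1.9e-06), Mvd (-0.78 ± 0.15, adjusted p = 0.00023) and Elovl5 (-0.32 ± 0.10, adjusted p = 0.015), so Tm7sf2 again ran against most of its pathway. The calls of Fads2, Fdft1, Hsd17b7 and Elovl5 were lost without 48 h replicate 1 (adjusted p = 0.056 to 0.11 over these genes and the single arrays that ended a call), and as a mean over probe sets Hsd17b7 was at 0.22 (adjusted p = 0.34).

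In the resistant tumours at 160 mg/kg limma called 0 of the 32 genes against vehicle, where it called 0.254% of all genes lower and 1.19% higher; 4 genes had an unadjusted p under 0.05, namely Fdps, Nsdhl, Ebp and Scd1, and the set's median was -0.15 (all genes 0.01). The 3 arrays differed among themselves. Hmgcs1 gave 3623, 2358 and 1630 on replicates 1, 2 and 3, Idi1 1362, 979 and 587, Sqle 1152, 822 and 511, and Fdps 911, 608 and 410.4. Replicate 1 was highest and replicate 3 lowest in each of these, and in 13 of the 17 genes of the mevalonate and sterol parts. Against the vehicle mean, the median difference of those 17 genes was 0.17 on replicate 1, -0.17 on replicate 2 and -0.61 on replicate 3. Macrophage markers summed to 2460, 5987 and 9877 and fibroblast markers to 3467, 8706 and 16889 on the same 3 arrays, and their part in this spread was not tested. The spread left wide limits: the change of Idi1 was -0.24 (95% interval -0.74 to 0.25), of Sqle -0.28 (-0.71 to 0.15), of Hmgcs1 -0.14 (-0.51 to 0.24) and of Srebf1 (2417, 1663 and 2012) -0.14 (-0.53 to 0.24). With the 4 h vehicle as control 3 genes were lower.

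**Figure D4:**
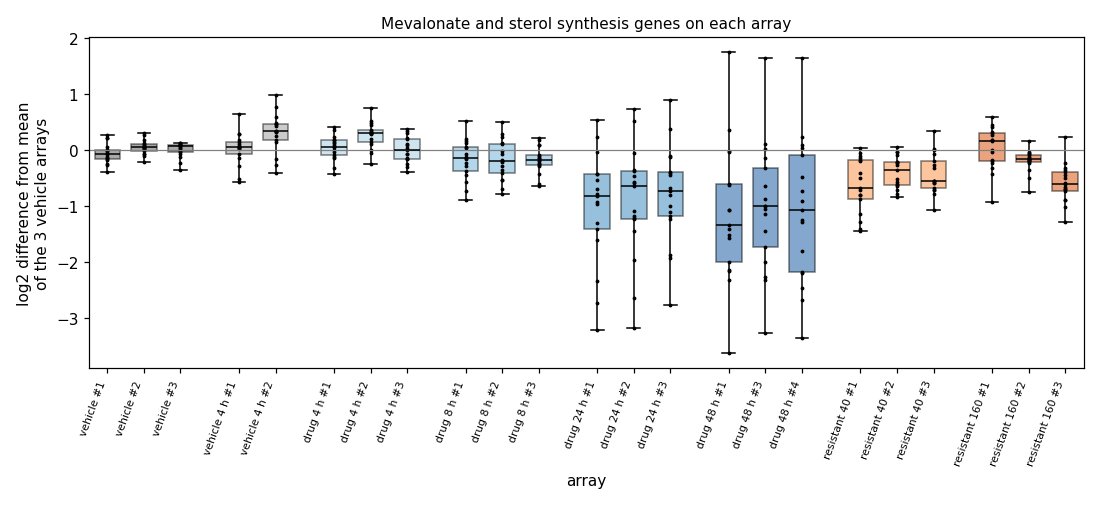
Each box holds the 17 measured genes of the mevalonate and sterol parts on 1 array, as the log2 difference of signal + 16 from the mean of the 3 vehicle arrays; points are genes, the line the median, the box the quartiles and the whiskers the lowest and highest gene. By median, the arrays at 48 h lie lowest, and those at 24 h and of the resistant tumours at 40 mg/kg lie between these and vehicle. The latter groups overlap, since replicate 1 at 40 mg/kg has a lower median than replicate 2 of 24 h. At 160 mg/kg the medians run from 0.17 to -0.61.

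Between the doses of resistant tumours 1 gene was higher at 160 mg/kg than at 40 mg/kg and 0 were lower, against 1.68% and 1.12% of all genes, with a median of 0.24 (all genes -0.02). It was Elovl5, with 847, 937 and 871 at 160 mg/kg and 672, 604 and 639 at 40 mg/kg, which do not overlap (0.46 ± 0.10, adjusted p = 0.011; 0.059 without replicate 2 at 160 mg/kg and 0.052 without replicate 2 at 40 mg/kg). With all arrays included, no gene of the mevalonate or sterol part was called. Without replicate 3 of the 160 mg/kg group 7 genes of the set were called, Elovl5 among them. Without replicate 1 or 2 of the 40 mg/kg group 2 were called, and without replicate 2 Elovl5 was not among them.

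Other probe sets of the same genes gave a second reading. At 24 h 22 further tested probe sets belonged to called genes, of which 12 were called in the same direction and 0 in the opposite one. At 48 h these counts were 20 of 28 and 0, and for resistant tumours at 40 mg/kg against 48 h 13 of 22 and 0, but against vehicle 0 of 7 were called. Called or not, 18 of 22 changed with the same sign as the chosen probe set at 24 h and 26 of 28 at 48 h. For resistant tumours at 40 mg/kg it was 19 of 22 against 48 h and 6 of 7 against vehicle, and the rest had the opposite sign. The other probe set of Idi1 fell by 2.62 at 48 h, and 4 further probe sets of Hmgcs1 changed by -1.67, -1.52, -1.47 and -1.28. Scd2 was less uniform from 24 to 48 h: its brightest probe set changed by -0.33 and another by 0.85 (adjusted p = 0.016). The chosen probe sets of Fdft1, Hmgcs1, Hsd17b7, Lss and Mvd are of types that share probes with other transcripts, so their values are uncertain.

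Of 34 further genes of sterol and lipid metabolism 27 were measured. At 24 h 10 were higher and 2 lower than with vehicle, where 19.7% of all genes were higher and 14.4% lower. At 48 h 11 were higher and 5 lower, against 25.1% and 21.3%. Their medians were 0.31 and 0.12, against 0.10 and 0.06 for all genes. The acyl-CoA synthetase Acsl3 fell with the enzymes, from 355, 393 and 376 with vehicle to 129, 143 and 142 at 24 h and 163, 165 and 149.9 at 48 h (-1.34, adjusted p = 1e-07, and -1.16, adjusted p = 4.5e-07). Mylip, a target of the liver X receptors that encodes a ubiquitin ligase, rose from 147, 129 and 100.4 to 790.1, 658 and 935 at 48 h (2.52, adjusted p = 2e-08). Also higher at 48 h were the liver X receptor gene Nr1h3 (1.40), the lysosomal cholesterol exporters Npc1 (1.32) and Npc2 (0.89), the elongases Elovl1 (1.36) and Elovl2 (1.05) and the acetyl-CoA synthetase Acss2 (0.64). In resistant tumours at 40 mg/kg against vehicle 1 of the 27 was higher (Mylip, 0.98, adjusted p = 0.018) and 1 lower (Acsl3, -0.53, adjusted p = 0.024), near the shares of all genes (5.39% and 4.45%). Against 48 h 8 were lower and 3 higher (19.2% and 17.8% of all genes), Mylip at -1.54 and Acsl3 at 0.63 among them. At 160 mg/kg limma called 0 of the 27 against vehicle, with 4 at an unadjusted p under 0.05. At 8 h Acss2 and Mylip were higher than in the 4 h vehicle (2.12% of all genes), and at 4 h 0 of the 27 passed, with 5 at an unadjusted p under 0.05.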

How the data were processed

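The deposited values are 1 linear signal intensity for each of 45101 probe sets on 23 arrays, made by the authors with MAS5 per the submitters' processing notes (version not given in the sources used here); the trimmed mean of 150.0 was read from the values. The design text names the 430A 2.0 array, which is smaller than 45101 probe sets. From these, log2(signal + 16) was computed, 64 control probe sets were left out, and the 35066 probe sets that exceeded the 40th percentile of the array on 2 or more arrays were fitted with limma 3.58.1 in R 4.3.3: 8 group means, eBayes with trend (15 residual and 8.46 prior degrees of freedom), 11 comparisons, two-sided. The platform annotation gave 34945 probe sets 1 symbol, 932 several and 9160 none. Such values give no counting error, and the number of arrays limits precision. All 32 measured genes are named, and per-array values are given for 8 fixed genes and the 3 largest called changes of each role. Those of Tm7sf2, Mvd, Elovl5, Acsl3, Mylip and Adipoq were added after they were seen. The members and lists were chosen with earlier results of these data known. Same-numbered replicates did not deviate together (1 of 70 pairs correlated over 0.1), so the numbers pair nothing. The fit was tested on simulated data. Alternatives were the offset, the filter, quantile normalization, no trend, only the compared arrays, mean over probe sets, the control arrays, a replicate or identifier-run block, and leaving arrays out.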

Additional observations from a re-analysis of the deposited data

Results flagged for a closer look

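In the limma test of 48 h against 24 h of drug, the signal of 11 genes differed. No vehicle of these times was analysed here, so whether the effect of the drug differed was not tested. The difference, 48 h minus 24 h, was -1.33 for Insig1, -1.11 for Idi1, -0.85 for Sqle, -0.71 for Fdft1, -0.63 for Cyp51, -0.53 for Fads2, -0.50 for Nsdhl and -0.33 for Scd2, and it was 0.40 for Ebp, 0.83 for Fdps and 0.96 for Tm7sf2. For Fads1 (-0.19, adjusted p = 0.17) and Pmvk (0.37, adjusted p = 0.066) all arrays of the 2 times lay on opposite sides of the vehicle mean, and the test of the difference did not pass. Between resistant tumours at 160 and 40 mg/kg Elovl5 differed by 0.46 (adjusted p = 0.011).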

How the results depend on the processing

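Of 93 called changes of single genes over the 11 comparisons, 60 were called under every alternative, 33 lost their call under at least 1, and 2 changed sign: Elovl5 at 24 h (-0.0895 with the 4 h vehicle as control) and Scd2 from 24 to 48 h (0.24 as a mean over probe sets). At 24 and 48 h and in resistant tumours at 40 mg/kg against 48 h, the counts of called genes stayed within 1.5 times the reported ones under all alternatives. At 4 h 1 gene was called with all 5 vehicle arrays. At 8 h the 2 calls became 1 with an offset of 1, without filter, without trend and with the replicate block, 6 with only the compared arrays and 4 without the 3 arrays of highest Adipoq. It stayed at 2 with the mean over probe sets, with 0 of the reported genes among them, and with all 5 vehicle arrays, with 1 among them. In resistant tumours at 40 mg/kg the 6 calls became 3 with the mean over probe sets, 15 with all vehicle arrays, 17 with the 4 h vehicle and 10 without the 3 arrays. At 160 mg/kg 3 were called with the 4 h vehicle. Between resistant doses the single call became 2 with the 60th percentile filter or quantile normalization, 0 without trend or with only the compared arrays, and 8 without the 3 arrays. Between 4 and 8 h 3 were called with only the compared arrays, and between 24 and 48 h the 11 calls became 5 with the replicate block. Leaving out 1 array gave 0 to 0 calls at 4 h, 0 to 2 at 8 h, 16 to 19 at 24 h, 18 to 23 at 48 h, 3 to 9 in resistant tumours at 40 mg/kg, 0 to 1 at 160 mg/kg, 14 to 19 for 40 mg/kg against 48 h, 1 to 7 between doses, 0 to 0 between 4 and 8 h, 12 to 14 between 8 and 24 h and 7 to 12 between 24 and 48 h. The causes were not tested. No vehicle of 8, 24 or 48 h was analysed here, and groups of 2 or 3 arrays leave small changes undetected.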
